A study of Arabidopsis thaliana with 2 samples.

Results

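Of the 334 PLT target genes of the study, 137 are not among its 197 core targets and are described here as the target genes outside the meristem core. They were chosen by values that are partly the same as those given below. The study kept binding sites that were shared by at least 2 PLT binding datasets, of which the PLT3 root peaks are 1. It took the genes that it associated with these sites within 4 kb and kept those that rose when a PLT gene was overexpressed. The core is the subset that the study found expressed in shoot stem cells, the quiescent centre and the root meristematic zone alike. A target expressed in some but not all of these is thus outside the core. The 197 core genes were removed by locus identifier to leave the 137. Since the PLT3 peaks helped to choose these genes, the presence, height and position of their peaks are a description and were not tested.

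PLETHORA (PLT) proteins are plant transcription factors of the AP2 family with paired DNA-binding domains. They are best known from the root tip, where they form a gradient that is high in the stem cells, keep cells dividing and act downstream of auxin. Relatives act in shoot meristems, lateral organ primordia and embryos. PLT proteins also act on genes with roles beyond the meristem itself, such as genes of auxin synthesis.

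PLT3 binding was measured by DNA affinity purification sequencing (DAP-seq), in which a tagged protein is incubated with naked, fragmented genomic DNA and the fragments that it retains are sequenced. The DNA came from whole roots of Col-0 seedlings, the common laboratory strain, at 5 days post germination, and 1 library was made with 3xFLAG-PLT3. Another was made with 3xFLAG-EGFP, a fluorescent protein that served as negative control. For each protein 200 ng of DNA was used, and libraries were amplified over 20 cycles. There was 1 library per protein, so no value below has a replicate error, and the EGFP library entered only through the authors' peak calling. The assay reads DNA without chromatin and does not report cell types.

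The peak list held 1996 peaks on the 5 nuclear chromosomes. Their fold enrichment at the summit, the ratio of signal over local background that the authors' peak caller gave, ran from 2.52 to 24.5 with a median of 4.75. No read counts are given with the peaks, so the depth is unknown, and a gene without a peak is one at which binding was not detectable at this depth.

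A peak centre lay within 4 kb of the transcription start site (TSS) at 56 of the 137 genes, or 40.9% (95% Wilson interval 33.0 to 49.2%), and at none of the other 81. Among all 27444 nuclear protein-coding genes of the annotation, 2931 or 10.7% had such a peak, a background from which nothing is read here because the rule used the peaks. Among the core targets the count was 72 of 197, or 36.5% (30.1 to 43.5%). The intervals cover counting error only. There were 61 pairs of a gene and a peak with 59 distinct peaks, since 5 genes had 2 peaks and 2 peaks were each shared by 2 of the genes. By chromosome, 21 of 43 genes on chromosome 5 had a peak, 15 of 33 on chromosome 1, 7 of 19 on chromosome 2, 7 of 24 on chromosome 4 and 6 of 18 on chromosome 3. All nuclear peaks numbered 458 on chromosome 5, 467 on chromosome 1, 327 on chromosome 2, 339 on chromosome 4 and 405 on chromosome 3. The counts by chromosome were not tested.

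Peaks of the genes outside the core were of ordinary height for the library. For each gene with more than 1 peak the stronger one was taken. The 56 strongest peaks had a median fold enrichment of 4.84 with quartiles of 4.27 and 6.27, and ranged from 2.94 at AT1G15330 to 11.7 at MLS. The median of the core targets was 4.77, and that of all 2931 protein-coding genes with a peak was 4.76. The −log10 q of the 56 peaks, a measure of the evidence for the peak, had a median of 5.07 and ran from 1.64 at HRA1 to 24.9 at MLS. The peaks were between 158 and 607 bp wide.

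**Figure D1:**
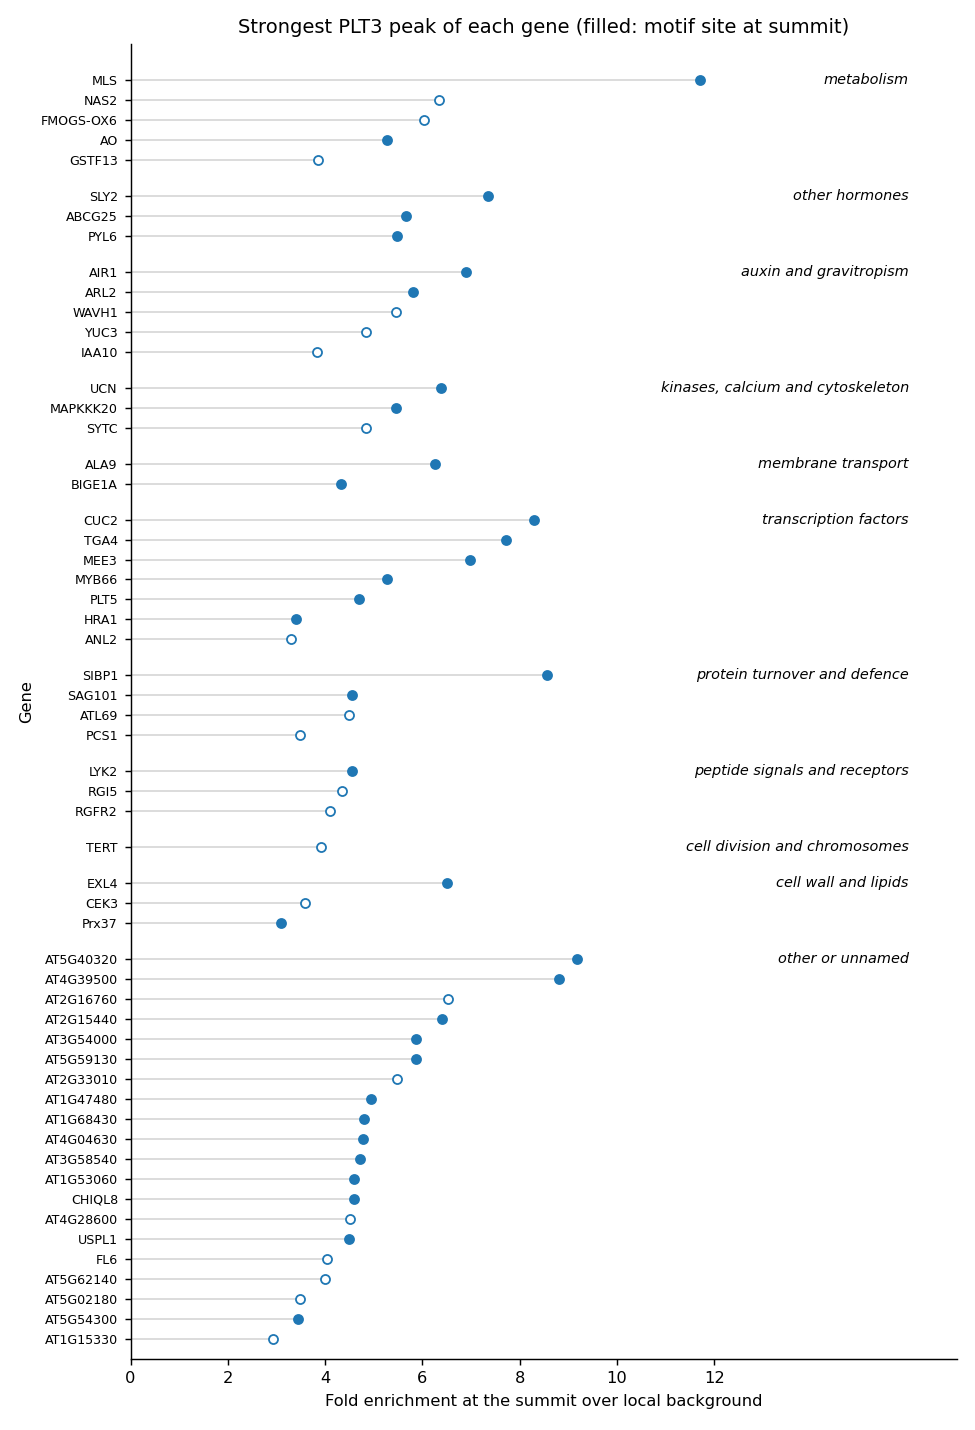
Fold enrichment at the summit (x axis, linear ratio over local background) of the strongest PLT3 peak of each of the 56 genes with a peak (y axis), grouped by function. Each point is 1 peak of 1 library, filled where the 100 bp at the summit held a site of the main motif matrix. MLS stood highest at 11.7, and the other peaks lay between 2.94 and 9.18.

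The sequence at the summits was not used directly to choose the genes. They were chosen through shared binding sites, which the study reports as enriched at their centres for the known PLT motif. The choice is thus not independent of the motif. A motif matrix of 16 positions was learnt on the 100 bp at the summits of 1861 peaks with no PLT target gene within 4 kb and was then applied to the peaks of the 137 genes. A window was counted as holding a site when its best score on either strand passed 8.95 bits, the score that 5% of windows 500 bp to the side of the learning peaks passed. The positions with 1 base at 70% or more were T at position 3 (84.4%), G at position 5 (90.2%) and G at position 12 (82.2%). The letters TNGNNNNNNG alone were common: on either strand they were in 55 of the 59 peaks of these genes, in 94.5% of all nuclear peak windows and in 86.1% of the flanking windows, so the count of sites rests on the full matrix.

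The strongest peaks of 35 of the 56 genes held a site, or 62.5% (49.4 to 74.0%). The window 500 bp to the side held one at 1 of the 56. Of the 59 distinct peaks 36 did, or 61.0% (48.3 to 72.4%), beside 66.6% of the 1937 nuclear peaks with none of the 137 genes within 4 kb. Most of these 1937 peaks were used to learn the matrix, which favours them. The share was thus near the background and is no result about these genes. The core targets had a site at 59 of 72 strongest peaks, or 81.9% (71.5 to 89.1%), and the difference between both groups of targets was not tested.

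The share also differed between matrices. Of the 1861 learning peaks, 615 or 33.0% shared a stretch of 20 bp with another learning peak. When these were left out, in an alternative chosen after seeing the data, a matrix learnt on the other 1246 peaks, with its own threshold of 8.59 bits set in the same way, found a site at 44 of the 56 strongest peaks, or 78.6% (66.2 to 87.3%), and at 60 of 72 core peaks, or 83.3% (73.1 to 90.2%). It called 73.4% of all 2931 protein-coding genes with a peak and 69.6% of the 1937 other peaks. Against the first matrix, 33 genes were called by both, each at an overlapping site, 11 were gained and 2 were lost. The genes gained were YUC3, TERT, NAS2, ATL69, CEK3, FL6, PCS1, AT5G02180, AT2G16760, AT5G62140 and AT1G15330. The genes lost were MAPKKK20 and AT5G40320, the genes whose peaks lay in repeated sequence. At 8.95 bits the second matrix found a site at 41 genes. The alternative changed the learning peaks, their number and the threshold together, and the part of each was not tested. Sites named below are those of the first matrix unless the second is mentioned.

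Within the 100 bp searched, the middle of a site could lie up to 42 bp from the summit. Over the 36 peaks with a site it lay at a median of 5 bp, at most 36 bp away, and within 20 bp at 30 of them. The sites had no shared orientation: 17 were on the plus strand and 19 on the minus strand, and 17 of the 35 sites in strongest peaks lay on the strand of their gene. Peaks with a site had a median fold enrichment of 5.46 (3.09 to 11.7), and the 23 without a site one of 4.03 (2.94 to 6.54). Both ranges overlap widely. Over all nuclear peaks the medians were closer, 4.87 with a site and 4.43 without. Over the 59 peaks, Pearson's r between the matrix score and log2 fold enrichment was 0.26, given as a description over peaks that share 1 library.

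**Figure D2:**
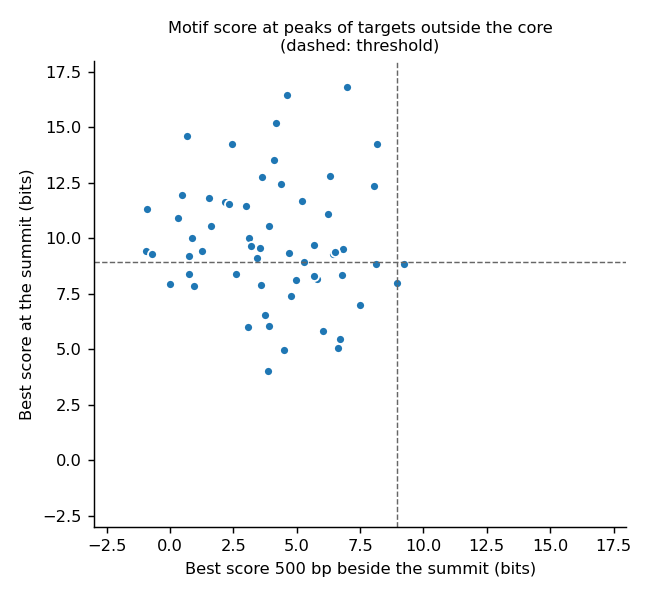
Best score of the main matrix (bits) in the 100 bp at the summit (y axis) against that in a window 500 bp beside the summit (x axis) for each of the 59 peaks of genes outside the core. The dashed lines mark the threshold of 8.95 bits, which 36 summit windows and 1 flanking window passed.

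The transcription factors, as grouped by hand here, had peaks at 7 of 14 members. A further 4 genes that are annotated as transcription factors or DNA-binding proteins were counted with the other genes (CHIQL8, with a peak, and AT1G19960, AT2G42660 and AT4G01460, without one), and with them the count is 8 of 18, or 44.4%. The auxin response factor ARF16 and the genes IAA10 and IAA33 are in the auxin group and not in this count. CUC2 (AT5G53950), a NAC factor that keeps organ boundaries free of growth, had the highest peak of the group, 8.29 with −log10 q of 13.3, at chr5:21903918-21904435, centred 322 bp upstream of its TSS. TGA4 (AT5G10030), a bZIP factor of defence and nitrate responses, followed with 7.72 at chr5:3144224-3144631. That peak was centred 158 bp upstream of the TGA4 TSS and at the same time inside a coding exon of the neighbouring AT5G10050. MEE3 (AT2G21650), a small MYB-like protein, had a peak of 6.99 at chr2:9260665-9261162, beyond its 3′ end and 1402 bp downstream of the TSS. These 3 stood above the upper quartile of the 56 genes.

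The remaining transcription factor peaks were lower. PLT5 (AT5G57390), itself a PLT family member with roles in lateral organ and lateral root formation, had a peak of 4.69 at chr5:23256419-23256673, in its own 5′ UTR, 157 bp downstream of the TSS. MYB66 (AT5G14750), known as WEREWOLF, which sets non-hair cell fate in the root epidermis, was reached by a peak of 5.27 at 3671 bp upstream. The MYB66 peak is the one it shares with AO, in whose 5′ UTR it lies, only 242 bp from the AO TSS. HRA1 (AT3G10040), which dampens the low-oxygen response, had a peak of 3.39 in its 5′ UTR (chr3:3097947-3098104, 392 bp downstream), and ANL2 (AT4G00730), a homeodomain-leucine zipper factor of anthocyanin accumulation and root patterning, one of 3.29 in an intron 2928 bp downstream (chr4:301556-301813). Both were below the lower quartile. Beside the value of CUC2, −log10 q was 12.2 for TGA4, 10.2 for MEE3, 5.78 for MYB66, 3.94 for PLT5, 2.29 for ANL2 and 1.64 for HRA1. The 7 members with no peak were SCRM2, KAN2, IDD7, BS1, BHLH129, AHL20 and TOE3.

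Of the 7 transcription factor peaks 6 held a site, all but ANL2, beside 69.1% of the strongest peaks of all protein-coding genes. No count of sites in a group of so few genes is read as a trait of that group. The best-scoring site of each is given with 7 bases to either side, 5′ to 3′ on the strand of the matrix, with the 16 bases of the site in capitals, to show how far the sites vary. Single sites can lack a letter that the matrix favours. The sequences were read from TAIR10.1, whose nuclear chromosomes have the coordinates of TAIR10. The site of ANL2 scored under the threshold.
CUC2, chr5:21904216-21904245, minus strand: aaaacaaTCTCGAGTTATGTAAAaaatata
TGA4, chr5:3144366-3144395, minus strand: gatccgtCATCGTACTCCGTGATcgactcg
MEE3, chr2:9260996-9261025, plus strand: gaactcaCCTCGAAAAATCTGCAatttctg
MYB66, chr5:4768501-4768530, minus strand: gaagagtCCTTGAAATTCGCGCCttcgttt
PLT5, chr5:23256516-23256545, plus strand: ttcacgaCTTTGGAAATAGTGGAaggtctc
HRA1, chr3:3098070-3098099, plus strand: gaagtggTTTCGGGATTGGAGTCaaaggaa
ANL2, chr4:301607-301636, plus strand: agatgctTCTTGGGAAATAGATAtcaaaat
The MYB66 site, which is also that of AO, scored 16.8 bits, the highest of all the genes outside the core, while that of PLT5 scored 9.11 bits and passed the threshold narrowly.

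Auxin and gravitropism genes had peaks at 5 of 9 members. AIR1 (AT4G12550), induced by auxin in root cultures, had the highest at 6.90 (chr4:7439114-7439509), in its coding exon and 196 bp downstream of the TSS. The centre of that peak also lay in an intron of AT4G12555, another protein-coding gene. ARL2 (AT1G59980), a DnaJ-domain protein of root gravitropism, had one of 5.80 in its 5′ UTR, 268 bp downstream, at chr1:22080746-22081169. WAVH1 (AT2G22680), a RING-type ubiquitin ligase that also acts in root gravitropism, had one of 5.46 in a coding exon, 1284 bp downstream (chr2:9646283-9646825). The genes of auxin synthesis and response had peaks close to the median of the 56 genes or under it. YUC3 (AT1G04610), a flavin monooxygenase of auxin synthesis, had a peak of 4.85 that lay 2263 bp upstream at chr1:1276913-1277263, and IAA10 (AT1G04100), an Aux/IAA repressor, one of 3.82 in its 5′ UTR, 135 bp downstream, at chr1:1059522-1059688. In these genes −log10 q was 9.59 for ARL2, 9.19 for AIR1, 5.56 for WAVH1, 4.83 for YUC3 and 2.65 for IAA10, so that ARL2 and AIR1 changed places against their order by height. The members without a peak were DRO1, YUC8, ARF16 and IAA33, so that for each of YUC and IAA 1 member had a peak and 1 had none.

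AIR1 and ARL2 held a site. YUC3 passed the threshold with the second matrix only, and WAVH1 and IAA10 with neither. Their best-scoring sequences are shown, so that those above and under the threshold can be compared.
AIR1, chr4:7439311-7439340, plus strand: gacctaaCATTGGGAAACCCACCtgtaaag
ARL2, chr1:22080967-22080996, minus strand: agtaaaaTCTGGGGATTCTAGCCagagaat
YUC3, chr1:1277066-1277095, minus strand: aaaaagaCTTGGGGAATTGCTCAcattcac
WAVH1, chr2:9646410-9646439, minus strand: tccatctCCCGGAGATTCGAAAGcacaatc
IAA10, chr1:1059544-1059573, minus strand: agggcgaCTTCGATTCTCGGATCaaaaaca
AIR1 lies in a family of neighbouring similar genes, and 45.1% of the 20-bp stretches of its peak occur elsewhere in the nuclear genome. Its peak shared 139 such stretches with the peak at chr4:7434266-7434543 (fold enrichment 4.55, nearest gene AT4G12545). The authors' filter on mapping quality removes reads that match several places equally well, and its part in the height of the AIR1 peak was not tested.

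Genes of the other hormones had peaks at 3 of 9 members. All 3 held a site, beside 69.1% of the strongest peaks of all protein-coding genes, a count too small to compare. SLY2 (AT5G48170), an F-box protein and close homologue of SLY1, which marks DELLA repressors of gibberellin response for turnover, had a peak of 7.36 in its coding exon at chr5:19532640-19533069, 536 bp downstream of the TSS. ABCG25 (AT1G71960), an exporter of abscisic acid, had one of 5.67 in an intron, 2542 bp downstream (chr1:27085568-27085844). PYL6 (AT2G40330), an abscisic acid receptor, had one of 5.47 in its 5′ UTR, 49 bp downstream (chr2:16845977-16846313). Their −log10 q was 11.2 for SLY2, 6.42 for ABCG25 and 5.91 for PYL6. All 3 were above the median height of the 56 genes and all were downstream of the TSS, from the 5′ UTR to far inside the gene. ICS2, BRG2, PYL2, BAS1, ETR2 and SMXL3 had no peak, so of the 2 PYL receptors 1 had a peak.
SLY2, chr5:19532866-19532895, plus strand: aaagaagCTTAGGGAGTCGTGCCaggacgg
ABCG25, chr1:27085692-27085721, minus strand: catagagCTTCGGGAATTGGAATagtcaga
PYL6, chr2:16846096-16846125, minus strand: agaatttCATGGGAAACCGGGCCggtcctt
These sites scored 11.3, 10.5 and 14.2 bits in the same order.

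Peptide signals and receptors had peaks at 3 of 10 members, each a receptor-like kinase. LYK2 (AT3G01840), with LysM domains, had a peak of 4.56 at chr3:300092-300308, 1552 bp upstream of its TSS and inside the 3′ UTR of AT3G01850. RGI5 (AT1G34110), which belongs to the receptors of the root growth factor (RGF) peptides that act with PLT proteins in the root meristem, had one of 4.35 in its 5′ UTR, 35 bp downstream, at chr1:12421628-12421887. RGFR2 (AT5G48940), another RGF receptor, had one of 4.10 centred 100 bp upstream (chr5:19839265-19839862). The RGFR2 peak spanned the TSS, with its summit 63 bp downstream and its best-scoring sequence in the 5′ UTR. Their −log10 q was 3.88 for LYK2, 3.18 for RGI5 and 3.27 for RGFR2. All 3 peaks were lower than the median height of the 56 genes. Both RGF receptor peaks were centred within 100 bp of the TSS, and neither held a site with either matrix, in contrast to LYK2. The peptide genes PSK1, RGF8, TWS1, GLV9 and PSY1 and the receptors RGFR1 and HSL2 had no peak.
LYK2, chr3:300180-300209, minus strand: aaaatcaTCTCGTGAATCGTGATacttagt
RGI5, chr1:12421734-12421763, plus strand: tatactgCAGTGATTTGGGCGCCaccggat
RGFR2, chr5:19839685-19839714, minus strand: cctttggCTTAGGGTTTAGGGAAgtttttg
The best score of RGI5 was 6.03 bits and that of RGFR2 was 5.06 bits, while that of LYK2 was 12.5 bits.

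Metabolism had peaks at 5 of 14 members and the highest peak of all 137 genes. MLS (AT5G03860), malate synthase of the glyoxylate cycle, which turns stored fat into sugar in seedlings, stood at 11.7 with −log10 q of 24.9. The MLS peak, chr5:1034421-1034975, was centred 275 bp after the TSS, in an intron, and its site lay in the 5′ UTR. The peak of MLS ranked 84 among the 2931 protein-coding genes with a peak. NAS2, which makes the metal chelator nicotianamine, had a peak of 6.33, and FMOGS-OX6, a flavin monooxygenase related to those of glucosinolate synthesis, one of 6.02. AO, which catalyses the first step of NAD synthesis, had the peak of 5.27 shared with MYB66, and GSTF13, a glutathione transferase, had one of 3.86. MLS and AO held a site, NAS2 only with the second matrix. TPS22, SURF1B, UGT73B4, APL4, AGT3, BGLU44, ISA3, TRE1 and TPS20 had no peak.

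Protein turnover and defence genes had peaks at 4 of 7 members. SIBP1 (AT1G55760), a BTB/POZ-domain protein, had one of 8.56 with −log10 q of 19.9 at chr1:20849378-20849898, 584 bp upstream. SAG101, a partner of EDS1 in plant immunity, had one of 4.55 far inside its coding sequence, ATL69, a RING-type protein, one of 4.49 and PCS1, an aspartic protease that limits cell death, one of 3.48. Thus SIBP1 stood apart in this group, and the other 3 were under the median of the 56 genes. FBS2, CP1 and ATL23 had none.

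The kinases, calcium and cytoskeleton genes had peaks at 3 of 9 members. UCN (AT1G51170), a protein kinase that keeps growth of the ovule integuments planar, had one of 6.37 in its coding exon, with a site of 16.5 bits. MAPKKK20, a kinase at the head of a MAP kinase cascade, had one of 5.46 at 3121 bp upstream, and SYTC, a synaptotagmin of membrane contact sites, one of 4.84 in a coding exon. UCN held the second highest motif score after the AO and MYB66 peak. The members without a peak were PRAF1, WAVE1, IQD15, SOS3, CML43 and CMCU.

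Cell wall and lipid genes had peaks at 3 of 8 members, with 6.51 at EXL4, an EXORDIUM-like protein, 3.59 at CEK3, a choline or ethanolamine kinase, and 3.09 at Prx37, a cell wall peroxidase. EXL4 and Prx37 were reached only from afar, at 3806 and 3551 bp downstream of their TSS and beyond their 3′ ends. The EXL4 peak lay inside a coding exon of AT5G09450, whose TSS was 201 bp away. Membrane transport had peaks at 2 of 4 members, 6.25 in the 5′ UTR of ALA9, a lipid flippase, and 4.33 in a coding exon of BIGE1A, a MATE family transporter, and both held a site. Of the 3 cell division and chromosome genes, TERT, the catalytic subunit of telomerase, had a peak of 3.92 in its 5′ UTR. PMEI-PME7, ADS1, FAH1, ELO4, sks15, MTP8, MFS1, MCC1 and CDC27a had no peak.

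Across the 10 function groups 36 of 87 genes had a peak, or 41.4%, and among the 50 genes that were unnamed or fitted no group 20 did. The shares of the groups ran from 30% for peptide signals and receptors to 57.1% for protein turnover and defence. With 3 to 14 genes in a group, these shares were not tested against each other.

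**Figure D3:**
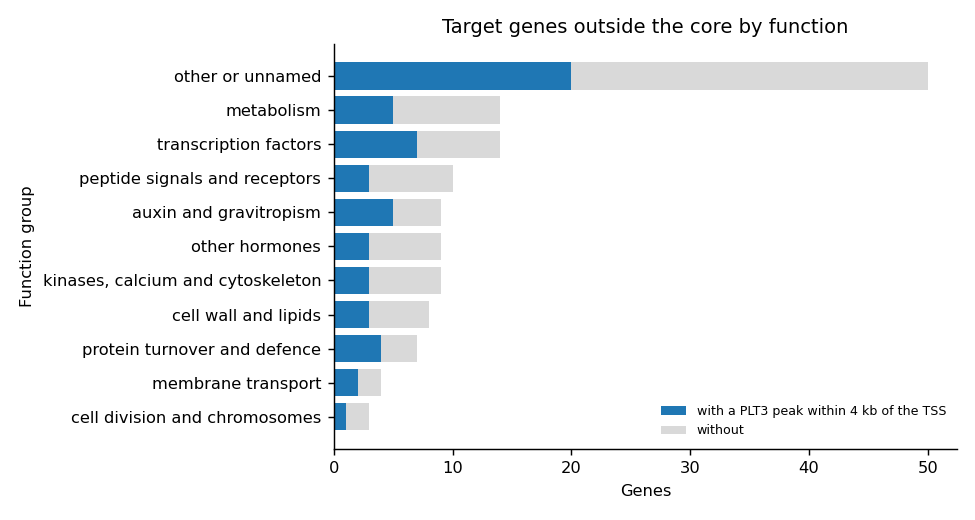
Number of target genes outside the core (x axis) in each function group (y axis), with a PLT3 peak centre within 4 kb of the TSS in blue and without one in grey. Peaks were found at 7 of 14 transcription factors and 3 of 10 peptide signals and receptors, and each group holds genes of both kinds.

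Of the 20 other genes with a peak, AT5G40320, a protein with cysteine and histidine-rich C1 domains, had the highest at 9.18 (chr5:16120398-16120997, 1011 bp upstream), and a further one of 4.75 at 995 bp downstream. AT4G39500, cytochrome P450 CYP96A11, had one of 8.81 in its coding exon at chr4:18368184-18368685, 97 bp downstream, and AT2G16760, annotated as a calcium-dependent phosphotriesterase, one of 6.54 in a coding exon at chr2:7275684-7276088, 229 bp downstream. Their −log10 q was 22.0, 14.3 and 9.005 for the strongest peaks in the same order. The other members of this set were lower, from 6.40 down to 2.94. They included AT3G54000, a TIP41-like protein with peaks of 5.87 and 4.43, AT5G59130, a subtilase with 5.86, AT1G53060, a legume lectin family protein with 4.59 and 3.61, AT4G28600, a gene related to pollen germination with 4.52 and 3.74, and FL6, a DUF828 protein with 4.03 and 3.62. AT2G15440 had 6.40, AT2G33010 5.48, AT1G47480 4.94, AT1G68430 4.80, AT4G04630 4.78, AT3G58540 4.72, CHIQL8 4.59, USPL1 4.50, AT5G62140 3.99, AT5G02180 3.48, AT5G54300 3.45 and AT1G15330 2.94 as fold enrichment of their only peak. In all 5 genes with 2 peaks the weaker one was under the median of the 56 strongest peaks.

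The best sites of the remaining genes among the 10 highest peaks are shown for comparison with those of the transcription factors and hormone genes. AT2G16760 passed the threshold with the second matrix only, and AT5G40320 with the first only.
MLS, chr5:1034645-1034674, plus strand: gtgcctcCTTGGGAAAGTGTGCCaagttct
AT5G40320, chr5:16120615-16120644, minus strand: gattttcCCGCCAAAAACGTAAAcccgtga
AT4G39500, chr4:18368344-18368373, minus strand: ggccggtTCTCGGGATGCTCCCCtgtctgc
SIBP1, chr1:20849619-20849648, plus strand: gctttgtCATAGAATTGCGTGCAttctatg
AT2G16760, chr2:7275776-7275805, plus strand: cgctcttCCTCGTTATCTCCGCCgttccaa
The 10 highest peaks, in falling order at MLS, AT5G40320, AT4G39500, SIBP1, CUC2, TGA4, SLY2, MEE3, AIR1 and AT2G16760, ranked from 84 to 544 among the 2931 genes. Of the 10, 9 held a site of the first matrix, beside 69.1% of the strongest peaks of all 2931 genes, and this was not tested.

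Peaks at MAPKKK20 and AT5G40320 lay in sequence that recurs in the genome. At MAPKKK20, 85.4% of the 20-bp stretches of the peak occur elsewhere in the nuclear genome and 107 other peaks shared at least 1 of them. For the stronger peak of AT5G40320 the values were 70.9% and 87 peaks, and both peaks shared stretches with each other. The 100 bp at both summits are tandem repeats: shifted by 27 bp, the MAPKKK20 window matched itself at 71 of 73 bases, and shifted by 28 bp, that of AT5G40320 matched itself at 64 of 72 bases. The windows are shown to make the repeated unit visible, with the best site of the first matrix in capitals on whichever strand it was found.
MAPKKK20, chr3:18652636-18652735, plus strand: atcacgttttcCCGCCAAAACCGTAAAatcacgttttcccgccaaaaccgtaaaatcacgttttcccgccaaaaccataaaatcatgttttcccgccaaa
AT5G40320, chr5:16120551-16120650, plus strand: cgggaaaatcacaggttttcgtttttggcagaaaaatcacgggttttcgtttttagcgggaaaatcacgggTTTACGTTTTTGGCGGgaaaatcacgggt
The weaker peak of AT5G40320, in its coding exon, held a separate site of 13.6 bits. Without the 2 peaks in repeated sequence 55 genes had a peak, with a median fold enrichment of 4.80, and 34 had a site. MLS and SIBP1 shared 3 stretches of 20 bp each with their closest matching peak, and the other 54 of the 59 peaks shared none with any nuclear peak. Thus 8.47% of the peaks of the genes outside the core shared sequence with another peak, beside 32.1% of the 1937 other nuclear peaks, a difference that was not tested.

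More peaks lay downstream of the TSS than upstream, and most lay within 1 kb of it on either side. Of the 56 strongest peaks 38 were centred downstream, or 67.9% (54.8 to 78.6%), and 18 upstream. Their median distance from the TSS was 390.5 bp, with 31 within 500 bp and 36 within 1 kb. The first 500 bp after the TSS held 22 of them, or 39.3%, and the last 500 bp before it 9, or 16.1%. Among the core targets the downstream share was 83.3% (73.1 to 90.2%), with 41.7% in the first 500 bp after the TSS and 6.94% in the 500 bp before it. Over all 2931 protein-coding genes, for which each peak counts for every TSS within 4 kb, the downstream share was 54.4%, with 11.1% after and 3.79% before the TSS. The study linked its binding sites to fewer genes than there were sites, so the target and all-gene shares are not counted alike. Position also helped to choose the targets through the limit of 4 kb, and these shares were not tested.

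**Figure D4:**
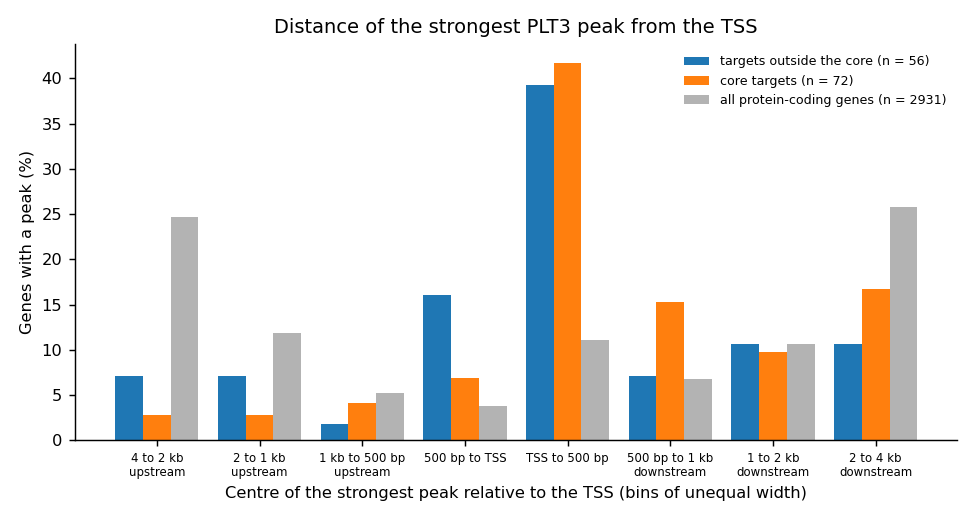
Share of genes with a peak (y axis, percent) by the position of the centre of their strongest peak relative to the TSS (x axis, bins of unequal width) for the targets outside the core, the core targets and all protein-coding genes. In both groups of targets the highest bar is the first 500 bp after the TSS, at 39.3% and 41.7%, and over all genes it is that of 2 to 4 kb downstream, at 25.8%. Over all genes each peak counts for every TSS within 4 kb, so the bars are not counted alike.

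By annotation, 18 of the 56 strongest peaks were centred upstream of their gene, 17 in a coding exon, 12 in the 5′ UTR, 4 in an intron and 5 beyond the 3′ end. Among the 72 core peaks 12 were upstream, 15 in a coding exon, 18 in the 5′ UTR, 16 in an intron, 7 beyond the 3′ end, 3 in the 3′ UTR and 1 in another exon. No such counts are given here for all genes with a peak, so they are not read as a trait of the targets. The peaks in a coding exon included those of SLY2, UCN, AIR1 and NAS2, and the peaks in the 5′ UTR those of PLT5, PYL6, RGI5 and TERT. High peaks were found on both sides of the TSS. Of the 6 highest peaks, CUC2, TGA4, SIBP1 and AT5G40320 were upstream of the TSS and MLS and AT4G39500 downstream.

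**Figure D5:**
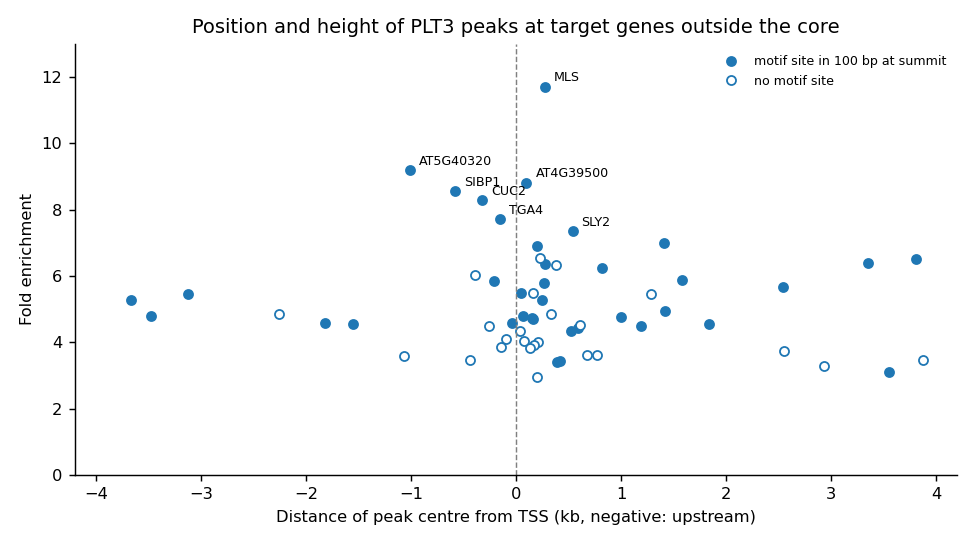
Fold enrichment (y axis, linear) against distance of the peak centre from the TSS (x axis, kb, negative values upstream) for all 61 pairs of a gene outside the core and a peak, filled where the main matrix found a site. The 7 highest peaks are named, and they lie between 1011 bp upstream and 536 bp downstream of the TSS.

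A peak within 4 kb does not single out its gene. For 50 of the 56 genes the TSS was the nearest one to at least 1 peak, and 14 of the 56 strongest peaks had no other protein-coding TSS within 4 kb, among them YUC3, PLT5, PYL6, RGI5 and UCN. At the 6 others, EXL4, AT2G15440, MAPKKK20, MYB66, AT5G02180 and AT5G54300, another TSS was nearer. The peak at chr5:434641-434817 was shared by PCS1, 439 bp upstream, and AT5G02180, an amino acid transporter 3871 bp downstream, and that at chr5:4768367-4768643 by MYB66 and AO. No peak of these genes had the TSS of a core target within 4 kb. The study linked sites to genes when it chose the targets, so the counts of nearest TSS are a description. Neither these counts nor that of peaks with no other coding TSS is given here for all genes. They are thus not read as a trait of these genes.

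For the 81 genes without a peak, the closest peak centre lay at a median of 25.9 kb from the TSS. It ran from 4242 bp to 269 kb and was within 10 kb at 11 genes. No such distance is given here for all genes, so it is not read as a trait of these genes. Just outside the limit were AT3G15720, a pectin lyase-like protein, at 4242 bp upstream (fold enrichment 2.89), AT1G70420 at 4589 bp downstream (4.28) and AT4G01460, a bHLH protein, at 4651 bp downstream (4.53). TOE3, an AP2 factor of flowering time, and SCRM2, a bHLH factor of stomatal development, followed at 5127 bp (3.85) and 5139 bp (3.92) upstream. Just inside it were AT5G02180 at 3871 bp, EXL4 at 3806 bp and MYB66 at 3671 bp. The values on both sides of the limit overlap in height.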

How the data were processed

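PLT3 binding was measured by DAP-seq in 1 library, with 1 EGFP library as control. Before deposit, the authors used fastp 0.23.2 for trimming, BWA 0.7.17 for alignment to TAIR10, and SAMtools 1.15 and Sambamba to discard duplicate reads and those of mapping quality under 30. Peaks came from MACS3 3.0.0a7, with EGFP as control and q-values up to 0.05. Such a filter removes reads that map to several places, and its effect on peak height was not tested. The deposited list gives fold enrichment at the summit, a linear ratio over local background. It also gives −log10 p and −log10 q, of which the p-value was not used. The authors' score, a rounded form of −log10 q, was not used, and the deposited summit position is a distance from the peak start. There are no counts, so the depth is unknown.

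The 137 genes are those of the study's list of 334 that are not in its list of 197, and all 334 loci matched the RefSeq annotation of TAIR10.1. The members, function groups, tests and alternatives were chosen with earlier results of these data known. Peak centres were measured to each TSS within 4 kb, on 1-based coordinates. Every gene with a peak is named once. Peak position, height, −log10 q and sequence are given for the hormone, peptide signal and transcription factor groups and the 10 highest peaks, and genes without a peak are named with their function group, or only counted where they are in none. The genes just outside 4 kb and the transcription factors outside that group were named after their values were seen. Intervals are 95% Wilson intervals, cover counting error only and treat genes as independent. No test was made, because 1 library has no replicate and the rule used the peaks. The motif matrix was learnt by expectation maximisation. The procedure was also run on simulated random windows, part of which held a planted motif. Those windows had no repeated sequence, so that run does not cover learning peaks that share sequence. Alternatives were stricter q-values, summits for centres, other ranges, and other motif thresholds and windows. A matrix without shared sequence and peak sets without repeats were added after seeing the data. Python 3.11.15, numpy 2.4.6, pandas 2.3.3, scipy 1.17.1 and matplotlib 3.10.9 were used.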

Additional observations from a re-analysis of the deposited data

How the results depend on the processing

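The 4 main values are the number of genes with a peak, their median fold enrichment, the share centred downstream and the number with a motif site. Of 33 alternative values, 28 stayed within 1.5 times a count or within the spread of the median or share, and 5 did not. With peaks at a q-value of at most 1e-05, 28 genes had a peak, their median fold enrichment was 6.29 and 22 had a site. With a range of 1 kb 22 genes had a site, and with a threshold that 2% of flanking windows pass 21 did. The first 3 values follow from keeping fewer and higher peaks, and the last 2 from a shorter range and a higher threshold. No paired analysis was possible because PLT3 and EGFP have a single library each. The depth is unknown, so a missing peak sets no upper limit on binding, and with no replicate library the heights carry no error. The matrix learnt without shared sequence, added after seeing the data, moved the number with a site from 35 to 44. With a window of 200 bp 27 genes had a site, and with a window at the peak centre 26 did. All of these are counted among the 28 values, so the number with a site moved both up and down within that limit.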
